A study of Mus musculus with 20 samples.

Results

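The chemokines and their receptors were followed across all 20 libraries. Members were the protein-coding genes named Ccl, Cxcl, Cx3cl1, Xcl1, Ccr, Ccrl2, Cxcr, Xcr1 or Ackr with their numbers, taken by symbol; the rule itself uses no measured value. This gave 67 genes of the 46078 counted (44 ligands and 23 receptors), and 31 of the 67 had at least 10 counts in at least 5 libraries. Aged (18 months) wild-type C57BL/6J male mice underwent distal middle cerebral artery occlusion with hypoxia, and tissue was taken 7 weeks later. From week 1 after stroke the mice received vehicle (sterile PBS) or 2-hydroxypropyl-beta-cyclodextrin (HPBCD), a ring of sugars that takes up cholesterol, at 4 g/kg under the skin 3 times per week for 6 weeks. RNA came from peri-infarct tissue, dissected next to the infarct by eye, or from the matching contralateral tissue, which gave 4 groups of 5 libraries. Every mouse in the data had a stroke, so no group stands for an uninjured brain, and the contralateral tissue came from the same animals. Groups are named as labelled throughout. HPBCD leaves no transcript of its own that would check a library's treatment label, so whether each label is right was not tested. Exchanged labels would turn every treatment difference below.

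Chemokines are small secreted proteins that steer migrating cells along gradients, and they act through receptors coupled to inhibitory G proteins. Families are named for the spacing of the first cysteines (CC, CXC, CX3C and XC). In the injured brain, microglia, astrocytes, endothelium and infiltrating leukocytes make inflammatory CC and CXC ligands, while fractalkine (Cx3cl1) is made by neurons and read by the microglial receptor Cx3cr1. Atypical receptors bind chemokines without the usual G protein signal and take ligand up or carry it across cells.

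Promoter windows are shown for 5 members to set ligands whose windows hold the letters of NF-kappaB or interferon sites beside the Cxcl12 axis, for which the interaction of region and treatment was called. Each run is the 250 bases before the RefSeq gene start (GRCm38.p6), 5′ to 3′ on the gene's strand. Cxcl10 is at chr5:92348890-92349139 (minus), Cxcl1 at chr5:90890995-90891244 (plus), Cxcl12 at chr6:117168285-117168534 (plus), Cxcr4 at chr1:128592300-128592549 (minus) and Ackr3 at chr1:90203730-90203979 (plus). Capitals mark matches on either strand to GGGANNTTC, a form of the NF-kappaB site, or GAAANNGAA, a form of the interferon response element.
Cxcl10: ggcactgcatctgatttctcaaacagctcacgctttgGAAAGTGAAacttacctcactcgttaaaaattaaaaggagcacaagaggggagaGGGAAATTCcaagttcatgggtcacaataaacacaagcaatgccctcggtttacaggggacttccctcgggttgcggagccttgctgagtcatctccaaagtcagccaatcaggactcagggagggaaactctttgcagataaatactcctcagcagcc
Cxcl1: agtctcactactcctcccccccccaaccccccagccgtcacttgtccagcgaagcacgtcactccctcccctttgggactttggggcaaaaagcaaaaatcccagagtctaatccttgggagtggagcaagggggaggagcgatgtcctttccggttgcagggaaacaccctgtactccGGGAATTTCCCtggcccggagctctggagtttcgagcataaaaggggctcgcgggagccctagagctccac
Cxcl12: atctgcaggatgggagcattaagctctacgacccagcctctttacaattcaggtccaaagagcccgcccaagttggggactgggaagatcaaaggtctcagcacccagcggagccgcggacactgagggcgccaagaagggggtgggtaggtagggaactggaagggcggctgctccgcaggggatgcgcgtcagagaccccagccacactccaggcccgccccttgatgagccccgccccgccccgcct
Cxcr4: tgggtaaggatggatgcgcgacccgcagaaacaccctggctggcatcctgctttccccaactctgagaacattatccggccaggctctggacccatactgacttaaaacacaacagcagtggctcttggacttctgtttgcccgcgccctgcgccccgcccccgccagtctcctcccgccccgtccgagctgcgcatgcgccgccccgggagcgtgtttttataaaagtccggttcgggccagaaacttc
Ackr3: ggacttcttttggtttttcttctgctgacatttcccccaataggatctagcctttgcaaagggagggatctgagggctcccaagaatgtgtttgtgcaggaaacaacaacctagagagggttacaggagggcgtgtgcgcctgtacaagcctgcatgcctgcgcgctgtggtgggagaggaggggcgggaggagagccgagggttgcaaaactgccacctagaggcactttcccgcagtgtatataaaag

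In the Cxcl10 window the interferon response form stood at bases 213 to 205 before the start and the NF-kappaB form at bases 159 to 151. The Cxcl1 window held overlapping NF-kappaB forms on opposite strands, at bases 71 to 61 before the start. No match to these letters was found in the windows of Cxcl12, Cxcr4 and Ackr3. Nor was one found for the inflammatory ligands Cxcl13, Ccl6, Ccl12 and Ccl9, so lack of a match does not set the Cxcl12 axis apart. Cxcl10 and Cxcl1 were shown because their windows hold matches. Among the 46 members with a RefSeq promoter, 8 (17.4%) held GGGANNTTC, namely Ccl1, Ccr3, Cxcl1, Cxcl10, Cxcl2, Cxcl3, Cxcl9 and Cxcr2, against 1061 of all 32851 promoters (3.23%). GAAANNGAA was found in 8 members (Ccl1, Ccl19, Ccl3, Ccr2, Cxcl10, Cxcl14, Cxcl9 and Cxcr1), against 2342 of all promoters (7.13%). Members were counted per gene, with a match in any of its promoters, and the background per promoter, so these shares are not like measures. These are matches to letters only, and neighboring genes of a cluster that arose by duplication are not independent.

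Gene counts per library ranged from 14445021 to 22171627 (median 19008532), so 3 counts, taken as the detection floor, corresponded to 0.135 to 0.208 CPM (counts relative to library size). All levels below are CPM scaled by trimmed mean of M values (TMM), and differences are edgeR log2 fold changes with their standard error (SE) and Benjamini-Hochberg adjusted p. The replicates are separate animals by their identifiers. A library stood apart in the vehicle contralateral group, where replicate 1 held 580.0 CPM of the striatal gene Ppp1r1b against 50.2 to 71.3 in the other 4. Without it, 11 of 24 members rather than 9 of 20 were called between regions in vehicle. Striatal genes were also high in peri-infarct libraries of both treatments: Adora2a read 12.1 to 111.9 CPM in vehicle and 30.2 to 107.6 CPM in HPBCD peri-infarct libraries, against 1.05 to 4.18 CPM in HPBCD contralateral libraries and 1.41 to 3.7 CPM in vehicle contralateral replicates 2 to 5. The part of striatal content in the region differences below was not tested. HPBCD contralateral replicate 3 held 634.4 summed CPM of choroid plexus markers against a group median of 6.35. Across the 31 members, vehicle peri-infarct replicate 2 was lowest in its group for 14 genes and replicate 3 highest for 15. Within the HPBCD peri-infarct group, replicate 2 was lowest for 18 genes and replicate 4 highest for 19. In these bulk samples, more or fewer cells of a type and more or less RNA per cell cannot be told apart.

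Of the 36 members that did not pass, 7 lie on unplaced scaffolds (further copies of Ccl19, Ccl21a, Ccl21b, Ccl21c and Ccl27) and had no count in any library. The other 29 never exceeded 49 counts in a library. They included the neutrophil receptors Cxcr1 and Cxcr2, the neutrophil attractants Cxcl2 and Cxcl3, the interferon-inducible ligand Cxcl9 with its receptor Cxcr3, the lymphoid tissue ligands Ccl19, Ccl21a and Ccl21b with their receptor Ccr7, and the eosinophil receptor Ccr3. The rest were the ligands Ccl1, Ccl7, Ccl11, Ccl20, Ccl22, Ccl24, Ccl26, Ccl27b, Cxcl15, Cxcl17 and Xcl1 and the receptors Ccr1l1, Ccr4, Ccr6, Ccr8, Ccr9, Xcr1 and Ackr4. Cxcl11, Ccl19-ps1 and Ccl19-ps3 fit the names but are not annotated as protein-coding, and these 3 were left out. Ccl21a, Ccl21b and the Ccl27 genes have near-identical copies, so their counts are uncertain. By role, 9 of 16 inflammatory CC ligands passed, 3 of 14 homeostatic CC ligands, 2 of 5 neutrophil-directed CXC ligands, 1 of 2 interferon-inducible CXC ligands and 4 of 5 other CXC ligands. Among the receptors, 4 of 11 CC receptors, 3 of 7 CXC and XC receptors and 4 of 5 atypical receptors passed.

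Levels between genes were compared per kb of exon. Averaged over the 20 libraries, Cx3cl1 was highest at 122.0 CPM per kb, followed by Cxcl14 at 63.1, Ackr1 at 17.1, Ccl27a at 15.9 and Cxcl12 at 9.53. The leading inflammatory ligand by this measure was Ccl6 at 4.57 CPM per kb, and the leading signaling receptor was Cxcr4 at 3.91. Ccr1 was last of the 31 at 0.177 CPM per kb.

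**Figure D1:**
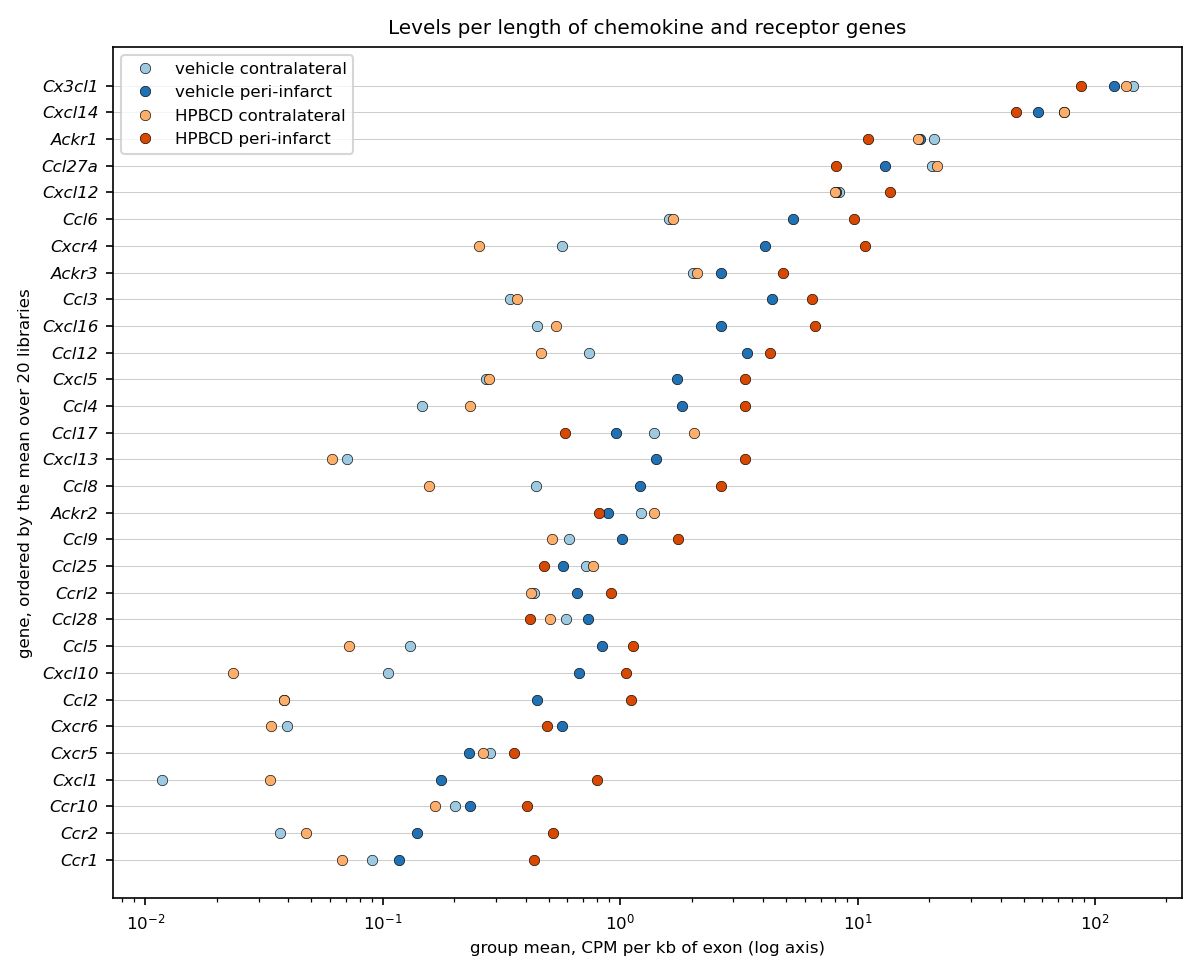
Group mean level of 30 members that passed, in CPM per kb of exon on a log axis, ordered by the mean over the 20 libraries; each point is the mean of 5 libraries of a group. Cx3cl1 and Cxcl14 lead at 122.0 and 63.1 CPM per kb, and the widest gaps between regions are at genes below 10 CPM per kb, such as Cxcr4 and Cxcl13.

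The region comparison in vehicle asks which of these genes still differ beside an infarct 7 weeks after stroke. The ligands Cxcl13, Cxcl5, Cxcl16, Ccl12 and Ccl6 and the receptor Cxcr4 were higher in vehicle peri-infarct tissue, and the neuronal ligand Cx3cl1 and the ligand Ccl27a were lower. Of 20 members tested, 7 were higher, among them Ccl12, Ccl6, Cxcl13, Cxcl16, Cxcl5 and Cxcr4, and 2 lower, where 10.5% of all tested genes were higher and 9.7% lower. The median log2 fold change was 0.34 over the tested members and 0.015 over all genes. Of the 20, Ccl12, Cxcl13 and Cxcl5 did not pass the filter among the contralateral libraries, so their entry rested on the peri-infarct group where they are high. Among the 17 that did pass there, 4 were higher and 2 lower (10.1% and 10% of all genes that passed there), with a median of −0.05. Of the 31 members that passed the count minimum, 11 with low counts in these 10 libraries did not enter this test. When genes with 10 counts in at least 5 of the 20 libraries were tested, 31 members entered, 15 were higher and 2 lower (10.2% and 9.23% of all genes) and the median was 1.12 (0.017 over all genes), so the median depends on which members enter. The added calls were Ccl2, Ccl3, Ccl4, Ccl5, Ccr2, Cxcl1, Cxcl10 and Cxcr6. Such genes reached the minimum mainly through peri-infarct libraries, where they are high, so their entry favors a higher call and nothing is read from the larger count.

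The B cell attractant Cxcl13 (chr5:95956951-95961068, plus) was at the limit of detection on the contralateral side of vehicle mice, at 0.055, 0, 0, 0.0544 and 0.295 CPM in replicates 1 to 5. Its level beside the infarct in the same mice was 2.24, 1.08, 0.904, 1.27 and 2.63 CPM. Each peri-infarct library lay above every contralateral library (log2 fold change 4.13, SE 0.64, adjusted p = 0.00264). HPBCD contralateral libraries held 0, 0.0504, 0, 0.0761 and 0.226 CPM of Cxcl13 and HPBCD peri-infarct libraries 2.73, 5.63, 4.65, 3.48 and 2.73 CPM. The HPBCD peri-infarct libraries all exceeded the vehicle peri-infarct libraries, narrowly at 2.73 against 2.63 CPM (log2 fold change 1.23, SE 0.33, adjusted p = 0.0286). Its receptor Cxcr5 averaged 0.94, 0.768, 0.881 and 1.19 CPM in vehicle contralateral, vehicle peri-infarct, HPBCD contralateral and HPBCD peri-infarct tissue, and no comparison called it.

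Cxcl16 (chr11:70453983-70459984, minus), a membrane-bound chemokine that binds Cxcr6 and also takes up oxidized lipoprotein, read 1.32, 2.23, 1.18, 1.2 and 0.836 CPM in vehicle contralateral tissue. Vehicle peri-infarct tissue held 5.3, 2.77, 12.8, 12.4 and 6.84 CPM. Every peri-infarct library was above every contralateral one, with replicate 2 closest to them (log2 fold change 2.55, SE 0.42, adjusted p = 0.00307). In HPBCD mice Cxcl16 read 0.749, 0.605, 2.83, 1.29 and 2.65 CPM contralaterally and 15.2, 10.1, 20.2, 34.7 and 19.9 CPM beside the infarct. The 2 treatments overlapped in peri-infarct tissue (10.1 against 12.8 CPM), and HPBCD was higher by a log2 fold change of 1.31 (SE 0.41, adjusted p = 0.0425). Exons of Cxcl16 overlap those of Zmynd15 on the opposite strand by 552 bases, and Zmynd15 itself averaged 2.54 CPM beside the infarct with HPBCD and 1.2 CPM with vehicle. Whether the counting used strand was not stated, so part of these reads could not be assigned to either gene with certainty.

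Cxcl5 (chr5:90759360-90761624, plus), which acts on the neutrophil receptor Cxcr2, rose from 0.55, 0.381, 0.474, 0.38 and 0.738 CPM in vehicle contralateral tissue to 2.45, 1.03, 4.52, 4.43 and 3.83 CPM in vehicle peri-infarct tissue (log2 fold change 2.65, SE 0.40, adjusted p = 0.0024). It rose in HPBCD mice from 0.549, 0.504, 0.483, 0.685 and 0.395 CPM to 4.16, 3.45, 12, 6.73 and 5.02 CPM (log2 fold change 3.57, SE 0.37, adjusted p = 5.66e-06). Regions did not overlap in either treatment. Between treatments the peri-infarct difference was 0.94 on the log2 scale (SE 0.41, adjusted p = 0.116). Cxcl1, a related ligand of Cxcr2, totalled 2 counts in vehicle contralateral libraries and averaged 1.5 CPM beside the infarct with HPBCD and 0.33 CPM with vehicle (log2 fold change between treatments 2.14, SE 0.64, adjusted p = 0.0384). Cxcl1 had not passed the filter in the region comparison of vehicle mice, so its entry between treatments favors a higher call. Cxcr2 itself did not reach the count minimum, and the neutrophil marker Ly6g was at 0 in 3 of the 4 groups, while 1 of 2 neutrophil markers tested was higher between treatments beside the infarct.

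Cxcl10 (chr5:92346638-92348889, minus), the interferon-inducible ligand of Cxcr3, was near the detection floor outside the peri-infarct libraries. Vehicle contralateral libraries held 0.22, 0.545, 0.118, 0.0544 and 0.246 CPM and vehicle peri-infarct libraries 0.612, 0.103, 3.05, 1.65 and 2.11 CPM. HPBCD contralateral libraries held 0.0499, 0.101, 0, 0 and 0.113 CPM and HPBCD peri-infarct libraries 1.72, 1.27, 1.4, 5.52 and 2.06 CPM. Regions overlapped in vehicle, where replicate 2 was low on the infarct side, and were apart in HPBCD (log2 fold change 5.20, SE 0.66, adjusted p = 3.03e-05). The contralateral levels there rest on 5 counts in all, so the size of this fold change is poorly fixed. HPBCD and vehicle peri-infarct tissue differed by 0.65 on the log2 scale (SE 0.63, adjusted p = 0.463).

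**Figure D2:**
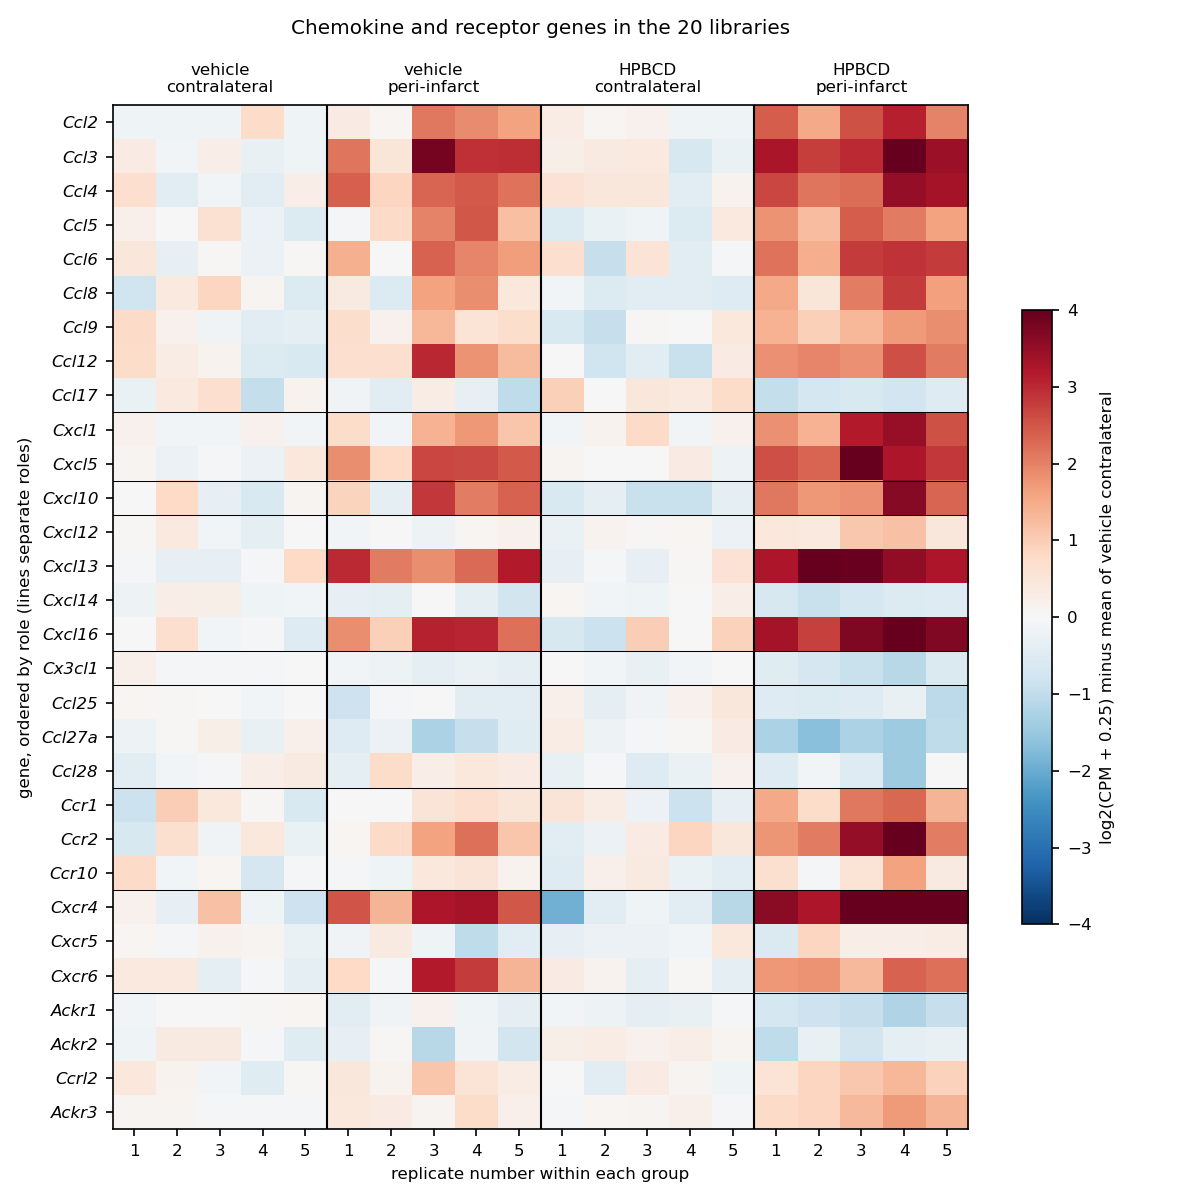
Level of 30 members that passed in each of the 20 libraries, as log2(CPM + 0.25) relative to the average over the 5 vehicle libraries of the contralateral side; colors saturate at 4 log2 units above or below. Rows are grouped by role and columns by group and replicate. Peri-infarct columns are red for most inflammatory ligands and for Ccr2, palest in vehicle peri-infarct replicate 2 and darkest for many genes in HPBCD peri-infarct replicate 4, while Cx3cl1, Ccl27a and Ackr1 are blue in HPBCD peri-infarct columns.

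Among the inflammatory CC ligands, which recruit monocytes and T cells, Ccl6 (chr11:83587882-83593087, minus), a ligand of Ccr1, was highest per length. Vehicle contralateral libraries held 3.96, 2.23, 2.9, 2.39 and 2.95 CPM of Ccl6, and vehicle peri-infarct libraries 8.06, 2.87, 15.5, 11.7 and 9.57 CPM. Only replicate 2 fell within the contralateral range (log2 fold change 1.71, SE 0.36, adjusted p = 0.00836). With HPBCD the contralateral libraries held 4.69, 1.36, 4.21, 1.98 and 2.76 CPM and the peri-infarct libraries 13.5, 8.26, 21.2, 22.6 and 21.1 CPM, without overlap (log2 fold change 2.52, SE 0.34, adjusted p = 4.9e-05). Treatments overlapped beside the infarct and the difference was 0.85 (log2, SE 0.38, adjusted p = 0.119).

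Ccl9 (chr11:83572919-83578636, minus), also a Ccr1 ligand, read 3.13, 2.02, 1.54, 1.25 and 1.28 CPM in vehicle contralateral and 3.01, 2.0, 4.8, 2.68 and 3.02 CPM in vehicle peri-infarct libraries, which overlapped. In HPBCD libraries it read 1.05, 0.807, 1.79, 1.75 and 2.42 CPM contralaterally and 4.96, 3.65, 4.8, 6.24 and 6.94 CPM beside the infarct, with no overlap. HPBCD peri-infarct tissue was above vehicle by a log2 fold change of 0.77 (SE 0.24, adjusted p = 0.0437). Ccl2 and Ccl12, ligands of the monocyte receptor Ccr2, averaged 0.507 and 1.83 CPM beside the infarct with vehicle, and 1.26 and 2.30 CPM with HPBCD. The macrophage inflammatory proteins Ccl3 and Ccl4 averaged 3.32 and 1.21 CPM beside the infarct with vehicle and 4.93 and 2.20 CPM with HPBCD, and Ccl5 averaged 0.802 and 1.09 CPM. Their contralateral means were 0.0435 to 0.397 CPM, many at or below the floor. None of these 5 ligands was called between treatments (adjusted p = 0.125 to 0.63).

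Ccr1, a receptor of monocytes and neutrophils, averaged 0.332 ± 0.121 CPM with vehicle and 1.23 ± 0.602 CPM with HPBCD beside the infarct (SD, n = 5), and the ranges did not overlap (0.204 to 0.471 against 0.507 to 1.99 CPM; log2 fold change 1.85, SE 0.40, adjusted p = 0.0164). The monocyte receptor Ccr2 averaged 0.94 ± 0.649 and 3.51 ± 2.72 CPM, with overlapping ranges (0.255 to 1.93 against 1.35 to 7.51 CPM; log2 fold change 1.87, SE 0.59, adjusted p = 0.0438). Ccr1 and Ccr2 passed the filter only where HPBCD peri-infarct libraries were included, and such entry favors a higher call. Cxcr6, the receptor of Cxcl16 on T cells, averaged 1.10 CPM beside the infarct with vehicle and 0.954 CPM with HPBCD, against 0.0765 and 0.0653 CPM contralaterally.

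For Cxcr4 and its ligand Cxcl12 the difference of peri-infarct from contralateral tissue was greater in HPBCD than in vehicle mice, by the test of the interaction itself. Cxcr4 (chr1:128588199-128592293, minus) guides leukocytes, microglia and neural progenitors toward Cxcl12. Vehicle contralateral libraries held 1.04, 0.654, 2.31, 0.761 and 0.394 CPM and vehicle peri-infarct libraries 6.22, 2.67, 10.5, 11.2 and 6.17 CPM. HPBCD contralateral libraries held 0.0499, 0.605, 0.758, 0.609 and 0.282 CPM and HPBCD peri-infarct libraries 13.8, 10.6, 22.7, 29.6 and 20.4 CPM. Regions did not overlap in either treatment, with log2 fold changes of 2.83 (SE 0.48, adjusted p = 0.0035) in vehicle and 5.44 (SE 0.41, adjusted p = 9e-07) in HPBCD. Treatments overlapped beside the infarct only through 11.2 CPM in a vehicle library and 10.6 CPM in an HPBCD library (log2 fold change 1.39, SE 0.36, adjusted p = 0.0252). The interaction was 2.59 (log2, SE 0.71, adjusted p = 0.0317), and it drew on the contralateral side too, where HPBCD libraries averaged 0.461 and vehicle libraries 1.03 CPM (log2 fold change −1.20, SE 0.57, adjusted p = 0.625).

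Cxcl12 (chr6:117168535-117181367, plus), which vessels and meninges make constitutively, read 69.7, 88.4, 62.4, 52.2 and 67.0 CPM in vehicle contralateral and 62.0, 65.9, 58.2, 71.0 and 74.9 CPM in vehicle peri-infarct libraries. These ranges overlapped throughout (log2 fold change −0.05, SE 0.12, adjusted p = 0.821). HPBCD libraries read 56.0, 73.3, 69.1, 71.3 and 57.3 CPM contralaterally and 89.7, 87.1, 141.5, 149.6 and 91.1 CPM beside the infarct. Here the regions were apart (log2 fold change 0.77, SE 0.16, adjusted p = 0.00149), as were the treatments beside the infarct (log2 fold change 0.74, SE 0.16, adjusted p = 0.0164), with replicates 3 and 4 well above the other three. The interaction was 0.81 (log2, SE 0.22, adjusted p = 0.0317).

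Ackr3 (chr1:90203980-90216751, plus), the atypical receptor that takes up Cxcl12, read 7.31, 7.3, 6.46, 6.36 and 6.54 CPM in vehicle contralateral and 9.13, 8.66, 7.29, 11.5 and 7.9 CPM in vehicle peri-infarct libraries. HPBCD libraries read 6.39, 7.21, 7.31, 7.76 and 6.43 CPM contralaterally and 11.7, 12.5, 16.9, 22.6 and 17.7 CPM beside the infarct. Every HPBCD peri-infarct library lay above all other libraries, the closest being 11.7 against 11.5 CPM in vehicle peri-infarct replicate 4. Peri-infarct tissue was higher with HPBCD by a log2 fold change of 0.86 (SE 0.19, adjusted p = 0.0161), and the interaction was 0.82 (SE 0.22, adjusted p = 0.0296). The region difference in vehicle was 0.38 (log2, SE 0.13, adjusted p = 0.0669).

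**Figure D3:**
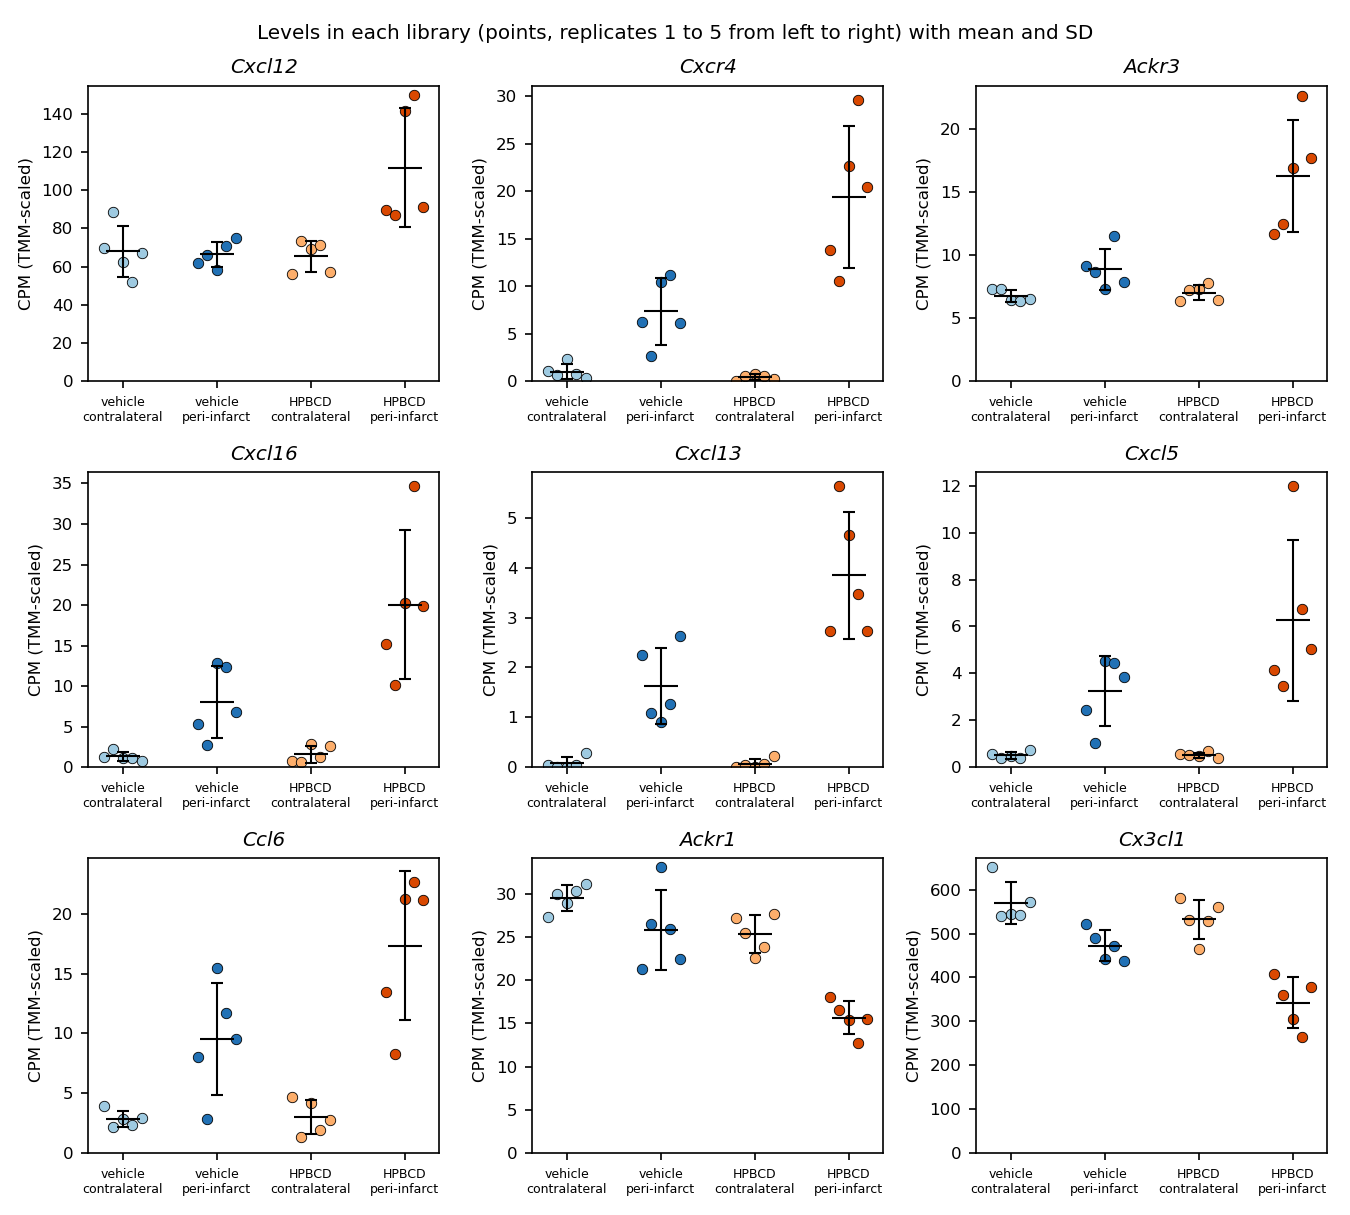
Level of 9 members in each library in TMM-scaled CPM on linear axes that start at 0; points are libraries, horizontal marks are group means and bars are SD (n = 5). Cxcl12 has its highest mean in HPBCD peri-infarct libraries (87.1 to 149.6 CPM; the highest other library is at 88.4), Cxcr4, Cxcl16 and Ccl6 are raised in peri-infarct libraries of both treatments, and Cx3cl1 is lowest in HPBCD peri-infarct libraries (265.3 to 406.8 CPM).

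Among the members that fell were Cx3cl1, Cxcl14, Ackr1 and Ccl27a, the highest per length. Cx3cl1 (chr8:94772009-94782427, plus), the neuronal ligand of microglial Cx3cr1, read 652.4, 540.0, 545.0, 541.1 and 571.7 CPM in vehicle contralateral and 522.3, 489.7, 441.0, 471.8 and 436.9 CPM in vehicle peri-infarct libraries. It read 579.7, 530.8, 463.8, 527.6 and 559.5 CPM in HPBCD contralateral and 406.8, 360.3, 304.7, 265.3 and 378.2 CPM in HPBCD peri-infarct libraries. Regions were apart in both treatments (log2 fold change −0.28, SE 0.08, adjusted p = 0.029 in vehicle; −0.63, SE 0.12, adjusted p = 0.000831 in HPBCD), and so were the treatments beside the infarct (−0.47, SE 0.12, adjusted p = 0.0262). Its receptor Cx3cr1, which lies outside the name rule, averaged 61.7 ± 8.32 CPM in vehicle contralateral, 158.1 ± 68.7 in vehicle peri-infarct, 59.8 ± 2.22 in HPBCD contralateral and 201.9 ± 53.1 CPM in HPBCD peri-infarct tissue (SD, n = 5).

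Ccl27a (chr4:41769467-41774247, minus), a skin-homing ligand of Ccr10 that is also transcribed in brain, read 42.1, 50.0, 57.4, 39.1 and 56.3 CPM in vehicle contralateral and 33.7, 41.3, 19.9, 25.6 and 34.3 CPM in vehicle peri-infarct libraries. HPBCD libraries read 59.7, 42.3, 45.6, 49.9 and 60.4 CPM contralaterally and 20.1, 15.1, 19.8, 17.9 and 23.6 CPM beside the infarct. Regions touched only through vehicle peri-infarct replicate 2, and the log2 fold changes were −0.67 (SE 0.18, adjusted p = 0.0225) in vehicle and −1.42 (SE 0.13, adjusted p = 2.43e-06) in HPBCD. Treatments overlapped beside the infarct (19.9 against 23.6 CPM; log2 fold change −0.69, SE 0.18, adjusted p = 0.0276), and the interaction was −0.76 (SE 0.24, adjusted p = 0.049). The gene shares 8 exonic bases with Il11ra1 on the opposite strand, which went the other way between treatments (0.63, SE 0.15, adjusted p = 0.0198), and near-identical copies of Ccl27a leave its count uncertain.

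The atypical receptor Ackr1 (chr1:173331886-173333750, minus), which carries inflammatory chemokines across venular endothelium, read 27.3, 30.0, 28.9, 30.3 and 31.1 CPM in vehicle contralateral and 21.3, 26.5, 33.1, 25.9 and 22.4 CPM in vehicle peri-infarct libraries. HPBCD libraries read 27.2, 25.4, 22.6, 23.8 and 27.7 CPM contralaterally and 18.0, 16.6, 15.4, 12.8 and 15.5 CPM beside the infarct. The vehicle regions overlapped (log2 fold change −0.20, SE 0.11, adjusted p = 0.233), whereas the HPBCD peri-infarct libraries lay below all others (−0.73, SE 0.13, adjusted p = 0.0128 between treatments; interaction −0.50, SE 0.15, adjusted p = 0.0435). Exons of Ackr1 share 361 bases with the neuronal adhesion gene Cadm3 on the same strand. Cadm3 averaged 418.6 ± 14 CPM beside the infarct with vehicle and 262.3 ± 85 CPM with HPBCD (SD, n = 5; log2 fold change −0.68, SE 0.20, adjusted p = 0.035), so reads of Ackr1 and Cadm3 in the shared bases could not be told apart.

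Ackr2 (chr9:121898355-121911074, plus), a decoy receptor for inflammatory CC chemokines, read 3.3, 4.79, 4.86, 3.59 and 2.56 CPM in vehicle contralateral and 2.91, 3.84, 1.58, 3.39 and 2.15 CPM in vehicle peri-infarct libraries. HPBCD libraries read 4.39, 4.59, 4.21, 4.56 and 4.06 CPM contralaterally and 1.72, 2.99, 2.13, 2.87 and 2.97 CPM beside the infarct, without overlap (log2 fold change −0.78, SE 0.18, adjusted p = 0.00296). Ccl17 (chr8:94810453-94812036, plus), a ligand of Ccr4 on T helper cells, held 0.495, 0.926, 1.18, 0.217 and 0.738 CPM in vehicle contralateral and 0.561, 0.41, 0.847, 0.471 and 0.191 CPM in vehicle peri-infarct libraries. Its HPBCD libraries held 1.5, 0.655, 0.965, 0.913 and 1.24 CPM contralaterally and 0.21, 0.304, 0.339, 0.276 and 0.383 CPM beside the infarct, again without overlap (log2 fold change −1.79, SE 0.31, adjusted p = 0.000351). Neither gene was called in vehicle (adjusted p = 0.229 and 0.442), and Ackr2 was not called between treatments (adjusted p = 0.715).

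The remaining members that passed were low. Ccrl2, an atypical receptor that presents chemerin, averaged 1.13 and 1.71 CPM in the contralateral and peri-infarct tissue of vehicle mice and 1.10 and 2.38 CPM in those of HPBCD mice, where it was higher beside the infarct (log2 fold change 1.13, SE 0.24, adjusted p = 0.00152). Ccl25, a gut-homing ligand of Ccr9, averaged 5.36 and 4.26 CPM in vehicle and 5.71 and 3.56 CPM in HPBCD mice in the same order, and was lower beside the infarct with HPBCD (log2 fold change −0.68, SE 0.20, adjusted p = 0.0108). The mucosal ligand Ccl28 averaged 2.01 to 3.55 CPM over the groups, and its difference between treatments beside the infarct was −0.82 on the log2 scale (SE 0.30, adjusted p = 0.0705). Ccl8 averaged 0.617 CPM beside the infarct with vehicle and 1.37 CPM with HPBCD (log2 fold change 1.12, SE 0.65, adjusted p = 0.218). Tested at 10 counts in 5 libraries, it was higher beside the infarct in HPBCD mice (log2 fold change 3.94, SE 0.61, adjusted p = 0.000134) and was not called in vehicle mice (adjusted p = 0.244). Ccr10, the receptor of Ccl27a and Ccl28, averaged 0.287 to 0.697 CPM over the groups. With filterByExpr it entered only the interaction test (adjusted p = 0.313), and at 10 counts in 5 libraries it was higher beside the infarct in HPBCD mice (log2 fold change 1.26, SE 0.49, adjusted p = 0.0448) and was not called in vehicle mice (adjusted p = 0.802). Ccl8 and Ccr10 reached 10 counts mainly in peri-infarct libraries, which favors a higher call. Nothing is read from their calls in HPBCD mice or from the contrast with vehicle mice.

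In HPBCD mice, peri-infarct against contralateral, 28 members were tested and 19 were higher and 7 lower, where 30.3% of all tested genes were higher and 24.3% lower. Their median log2 fold change was 2.15 against 0.032 over all genes, and it is not comparable with that in vehicle because other members entered. Of the 28, 11 (Ccl2, Ccl3, Ccl4, Ccl5, Ccl12, Ccr1, Ccr2, Cxcl5, Cxcl10, Cxcl13 and Cxcr6) did not pass the filter among the contralateral libraries. All 11 were called higher, as were 78.1% of all genes that entered in this way, so the count of 19 and the median of 2.15 are descriptions that this manner of entry favors. Among the 17 that passed among contralateral libraries, 8 were higher and 7 lower (27.9% and 25.5% of all genes that passed there), with a median of 0.43. Ackr3, Ccl2, Ccl3, Ccl4, Ccl5, Ccl9, Ccr1, Ccr2, Ccrl2, Cxcl10, Cxcl12 and Cxcr6 were higher beside the 7 genes that were higher in vehicle, and the 7 lower genes were Ackr1, Ackr2, Ccl17, Ccl25, Ccl27a, Cx3cl1 and Cxcl14. The largest changes were those of Cxcl13 (5.65, SE 0.52), Cxcr4 and Cxcl10. Cxcl14, a ligand that epithelia and neurons make constitutively, fell from 135.6 ± 16.8 to 85.2 ± 8.59 CPM (SD, n = 5; log2 fold change −0.67, SE 0.10, adjusted p = 9.1e-05). The 2 members tested and not called were Ccl28 and Cxcr5 (adjusted p = 0.419 and 0.298). With 10 counts in 5 libraries, Ccl8, Cxcl1 and Ccr10 also entered and were called higher, and nothing is read from this because they reached 10 counts mainly in peri-infarct libraries. The region comparisons of the 2 treatments used different mice and share no library.

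**Figure D4:**
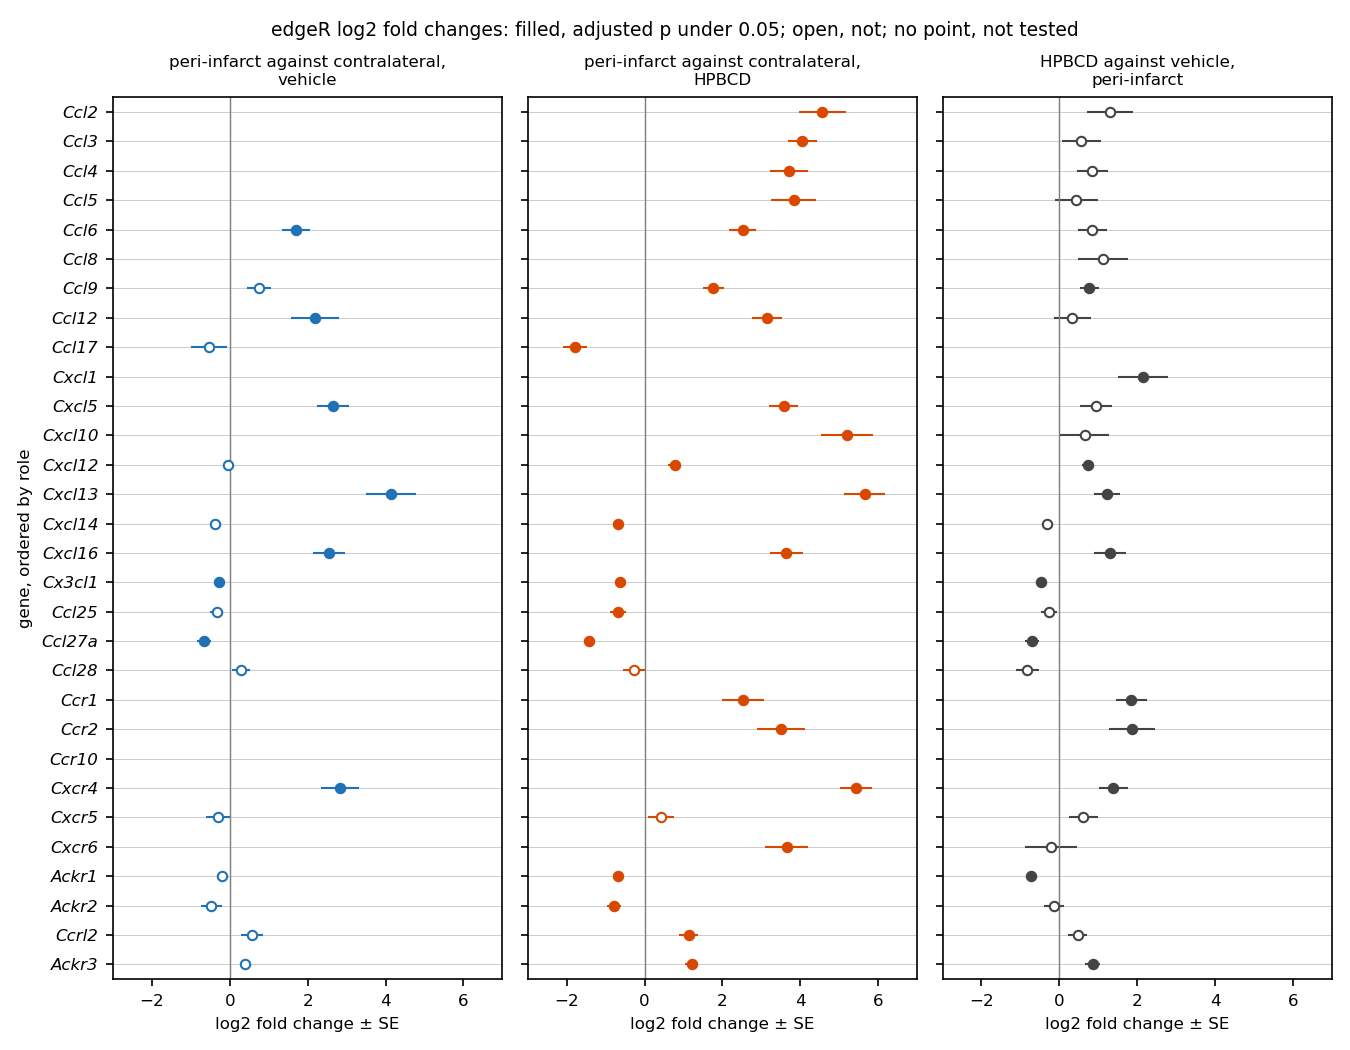
edgeR log2 fold change with SE for 30 members in 3 comparisons: peri-infarct against contralateral in vehicle (left) and in HPBCD (middle), and HPBCD against vehicle in peri-infarct tissue (right). Filled points passed an adjusted p of 0.05, open points did not, and a gene without a point was not tested. The middle panel has the widest changes, up to 5.65 for Cxcl13.

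In peri-infarct tissue, HPBCD against vehicle, 29 members were tested and 9 were higher (Ackr3, Ccl9, Ccr1, Ccr2, Cxcl1, Cxcl12, Cxcl13, Cxcl16 and Cxcr4) and 3 lower (Ackr1, Ccl27a and Cx3cl1), where 12.4% of all tested genes were higher and 9% lower. The median log2 fold change was 0.65 over the members and 0.014 over all genes. Of the 29, 10 had not passed the filter in the region comparison of vehicle mice. Of these 10, Ccr1, Ccr2 and Cxcl1 were higher (30%), as were 28.4% of all genes that entered in this way. Such entry favors a higher call, so nothing is read from the number of these calls. The other 19 held 6 of the higher and all 3 lower calls (11.8% and 9.34% of all genes that passed there), with a median of 0.47. The count of called members fell to 5 when vehicle peri-infarct replicate 1 was left out and to 6 when replicate 2 was. It fell to 4 when replicate 3 of the HPBCD peri-infarct group was left out and to 6 when its replicate 4 was. In the interaction of region and treatment, 31 members were tested and 3 were higher (Cxcr4, Ackr3 and Cxcl12) and 2 lower (Ackr1 and Ccl27a), where 5.03% and 4.38% of all tested genes were. No member was called in all 20 fits that left out a library, and the count was 0 when replicate 2 of vehicle peri-infarct, replicate 1 of vehicle contralateral, or replicate 3 or 4 of HPBCD peri-infarct tissue was missing.

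Which libraries the calls rest on differed by gene. In the vehicle region comparison Cxcl13, Cxcl5, Cxcl16, Ccl6 and Cxcr4 were called in all 10 fits that left out a library. Ccl12 was lost in 6 of them (without vehicle peri-infarct replicate 3 or 4 or contralateral replicate 2, 3, 4 or 5; adjusted p up to 0.0722) and when libraries were paired by animal (adjusted p = 0.055). Cx3cl1 was lost in 6 (without peri-infarct replicate 3, 4 or 5 or contralateral replicate 1, 3 or 5; adjusted p up to 0.0718) and with all 4 groups in 1 fit (adjusted p = 0.0654), and Ccl27a in 4 (without peri-infarct replicate 4 or contralateral replicate 2, 3 or 5; adjusted p up to 0.0652).

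Between treatments beside the infarct, Ccr1, Ackr1, Ackr3 and Cxcl12 were called in all 10 such fits, with adjusted p up to 0.049, 0.0393, 0.0466 and 0.0476. For Ccr1 this is no sign of a firmer result. It passed the filter only where HPBCD peri-infarct libraries were included, where it is high, and such entry favors a higher call. Cxcl13 was lost without vehicle replicate 2 or 4 or HPBCD replicate 3 (up to 0.0732), Cx3cl1 without vehicle replicate 1 or 2 or HPBCD replicate 3 (up to 0.0727), and Cxcr4 without vehicle replicate 1 or 5 or HPBCD replicate 3 or 4 (up to 0.064). Ccl27a was lost without vehicle replicate 1, 2 or 5 or HPBCD replicate 3 or 4 (up to 0.0662). Cxcl16, Cxcl1 and Ccr2 were each lost without vehicle replicate 1, 2 or 5 or HPBCD replicate 3, 4 or 5 (up to 0.104, 0.092 and 0.112), and Cxcl1 and Ccr2 also with limma voom (adjusted p = 0.0537 and 0.0654). Ccl9 was kept only without vehicle replicate 3 or HPBCD replicate 2 (otherwise up to 0.097), and it was lost with no filter on low counts. The interaction was lost in 5 of 20 fits for Ackr3, 8 for Cxcl12, 10 for Cxcr4, 14 for Ackr1 and 17 for Ccl27a, with adjusted p up to 0.0569, 0.0645, 0.078, 0.0829 and 0.104.

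On the contralateral side, HPBCD against vehicle, 17 members were tested with edgeR and none was called higher or lower, where 0% of all tested genes were called in either direction. At an unadjusted p under 0.05 stood 1 of the 17 members, Ackr1 (log2 fold change −0.23, SE 0.08, adjusted p = 0.555), and 1224 of all genes. DESeq2 called 49 genes and no member. Median log2 fold changes were 0.0 over the members and −0.007 over all genes.

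Many members lie in clusters of related genes. Of the 11 members in the Ccl cluster of chromosome 11, 8 passed the count minimum, and all 7 that were tested in HPBCD mice were higher beside the infarct, though 5 of them (Ccl2, Ccl3, Ccl4, Ccl5 and Ccl12) passed the filter only where peri-infarct libraries were included, so nothing is read from that count. Between treatments 1 of 8 was higher, a share near the 12.4% of all genes. Of the Cxcl genes of chromosome 5, Cxcl5, Cxcl10 and Cxcl13 were tested and higher beside the infarct in HPBCD mice, and nothing is read from this count either, since none of them passed the filter among contralateral libraries. Between treatments 2 of 4 were higher (Cxcl1 and Cxcl13), where 12.4% of all tested genes were. Cxcl1 and Cxcl10 had not passed the filter in the region comparison of vehicle mice, so nothing is read from this count. Ccl17 and Cx3cl1, neighbors on chromosome 8, both fell in HPBCD mice, while Ccl22 beside them did not reach the count minimum.

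Genes that act with chemokines were read from lists. Over all tested genes, 10.5% were higher and 9.7% lower beside the infarct in vehicle, 30.3% and 24.3% in HPBCD, and 12.4% and 9% between treatments. Of the G proteins and effectors that carry the receptor signal to the cytoskeleton, 18 were higher and 1 lower of 36 tested beside the infarct in vehicle, among them the Rac activator Dock2 (log2 fold change 1.97, SE 0.24) and the hematopoietic GTPase Rac2 (1.81, SE 0.31). In HPBCD mice 23 were higher and 6 lower of 37, and between treatments 5 were higher and 3 lower of 38, which is near the share of all genes. The phospholipase Plcb3 was among the higher ones (0.69, SE 0.15). Receptor kinases, arrestins and RGS proteins, which end the signal, had 1 higher and 1 lower of 13 in vehicle and 7 higher and 5 lower of 14 in HPBCD. Between treatments 3 were lower and none higher of 14, namely Grk3 (−0.53, SE 0.13), Grk2 (−0.45, SE 0.10) and Arrb1 (−0.34, SE 0.08). Proteases that shed or cut chemokines had 6 higher of 9 in vehicle, 10 of 11 in HPBCD and 3 of 11 between treatments, with none lower. Those between treatments were Dpp4, which trims Cxcl12 and Cxcl10 (1.46, SE 0.31), Mmp14 (1.29, SE 0.27) and Mmp2 (0.88, SE 0.27).

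Of NF-kappaB and its inducers, 8 were higher and 1 lower of 17 in vehicle, 15 higher and 1 lower of 17 in HPBCD, and 6 higher and none lower of 18 between treatments. The TNF receptor Tnfrsf1a was called in each (1.21, SE 0.22, 2.26, SE 0.18 and 0.97, SE 0.26, all log2 fold changes). Chemokine genes outside the name rule had 3 higher and none lower of 5 in vehicle, 3 higher and 2 lower of 6 in HPBCD, and 2 higher and 1 lower of 6 between treatments. Rarres2, the precursor of chemerin, was higher between treatments (1.32, SE 0.19, adjusted p = 0.0127), as was platelet factor 4, Pf4, which border macrophages also express (1.79, SE 0.41, adjusted p = 0.018), at 0.381 ± 0.223 and 1.35 ± 0.354 CPM (SD, n = 5), and Pitpnm3, which has been described as a Ccl18 receptor, was lower (−0.74, SE 0.15, adjusted p = 0.0145). On the contralateral side no gene of these lists was called between treatments, where 0% of all genes were.

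Markers of several cell types moved with these results, and their part in them was not tested. Of all tested genes, 10.5% were higher and 9.7% lower beside the infarct in vehicle, and 30.3% and 24.3% in HPBCD. Between treatments the shares were 12.4% and 9%, and in the interaction 5.03% and 4.38%. All 7 microglial markers were higher beside the infarct in both treatments, at 347.6 to 822.4 summed CPM in vehicle peri-infarct and 528.3 to 940.0 in HPBCD peri-infarct libraries against 210.5 to 256.3 contralaterally, and 0 of 7 were called between treatments. All 5 markers of fibroblasts and meninges were higher in HPBCD than in vehicle peri-infarct tissue, at 291.8 to 956.5 against 45.1 to 255.4 summed CPM, with HPBCD peri-infarct replicate 4 highest, and 4 of 5 were higher in the interaction. Border macrophage markers had 4 of 6 higher between treatments (19.7 to 42.9 against 5.89 to 15.4 summed CPM) and red blood cell markers 3 of 3 tested (9.13 to 80 against 5.46 to 10.8 summed CPM). Only 5 border macrophage and 2 red blood cell markers were tested in the region comparison of vehicle mice. Some thus entered only where HPBCD peri-infarct libraries were included, so nothing is read from these counts. Neuronal markers were lower beside the infarct, 3 of 7 in vehicle and 7 of 7 in HPBCD, and 5 of 7 were lower between treatments (3034.7 to 6036.4 against 6024.6 to 8079.3 summed CPM), with HPBCD peri-infarct replicate 4 lowest, and 5 of 7 were lower in the interaction. Astrocyte markers had 4 of 5 higher in each region comparison and 1 of 5 between treatments, endothelial markers 0, 1 and 1 of 6 (with 1 of 6 lower in HPBCD mice), and choroid plexus markers 3 of 5 between treatments (27.1 to 679.1 against 5.94 to 76 summed CPM). Only 3 choroid plexus markers were tested in the region comparison of vehicle mice. The others entered only where HPBCD peri-infarct libraries were included, so nothing is read from the choroid plexus count.

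Of 7 T lymphocyte markers, 5 were tested in HPBCD mice and all 5 were higher beside the infarct. Of these, Cd2, Cd3e and Cd8a passed the filter only where peri-infarct libraries were included. In vehicle mice only Lck and Cd4 were tested and neither was called, so no contrast between the treatments is read from these counts. None of 6 was called between treatments, and the defining marker Cd3d was at 0 in both contralateral groups. Vehicle contralateral replicate 1 held 57.2 summed CPM of this list against a group median of 3.73. B lymphocyte and plasma cell markers had 3 of 3 higher in HPBCD mice, 1 of 1 in vehicle mice and 1 of 3 between treatments. None of these markers passed the filter among contralateral libraries, so nothing is read from the counts by region. Neutrophil markers were sparse, at 0.051 to 3.49 summed CPM in vehicle and 1.6 to 20.9 in HPBCD peri-infarct libraries, where 2 of 2 tested genes were higher beside the infarct and 1 of 2 was higher between treatments (none passed the filter in the region comparison of vehicle mice or among contralateral libraries). These 2 genes entered through the HPBCD peri-infarct libraries, and nothing is read from their counts. Monocyte markers had 1 tested gene, higher in both region comparisons and not called between treatments, and dendritic cell markers had 1 of 4 higher and 1 of 4 lower beside the infarct in each treatment and 1 of 4 lower between treatments.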

How the data were processed

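Poly(A) RNA of 20 tissue samples was sequenced as stranded read pairs. The authors demultiplexed with bcl2fastq 2.19, trimmed with Trimmomatic 0.32, aligned to GRCm38 with STAR 2.5.2b and counted reads per gene with htseq-count, and the deposited values are these raw counts. The annotation release and strand option are not given in the sources used here. Symbols and positions were taken from GENCODE M21, which held 98.16% of the genes and 99.933% of the counts. Lines that name no gene were left out (no feature 4.39% to 9.5%, ambiguous 3.94% to 8.03% and not unique 16.58% to 24.3% of each table). Reads without a unique position were thus not counted, which lowers genes with near-identical copies. HPBCD contralateral replicate 4 alone held the 9.5% no feature and 8.03% ambiguous shares, against at most 5.86% and 4.16% in any other library. It also had the fewest gene counts (14445021).

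Differences in counts came from edgeR 4.0.16 (R 4.3.3), using its quasi-likelihood test, TMM factors and filterByExpr, over the 10 libraries of a comparison or all 20 for the interaction of region and treatment. p-values were adjusted by Benjamini-Hochberg over all genes tested, with a threshold of 0.05. SE is the absolute log2 fold change divided by the square root of F. Depth was 14445021 to 22171627 gene counts per library, and floors cover counting error only. The fit was tested on simulated data.

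Within a treatment, the peri-infarct and contralateral libraries of the same number carry a common identifier in the names of their deposited tables, which was read as the animal. Their deviations from group means correlated with a mean r of 0.111 over 10 pairs (−0.117 to 0.374; 5 over 0.1), so the pairing rests on the identifier. Between treatments the animals differ.

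Every library is shown for members called in vehicle, between treatments or in the interaction (at most 12, highest first) and for the 3 largest and 3 smallest changes in HPBCD mice. Some items that these rules select are not reported here. From other lists at most 4 called genes were named. Promoters were read from RefSeq (GRCm38.p6). The members and lists were chosen with earlier results of these data known. Alternatives were DESeq2 1.42.0, limma 3.58.1 voom, RLE and upper-quartile factors, no filter, 10 counts in 5 libraries, all 4 groups in 1 fit, a replicate block and leaving out each library. Samples of young mice and other tissues of the study were not analysed here.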

Additional observations from a re-analysis of the deposited data

Results flagged for a closer look

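For 15 members each group was read for a library far from the others, 60 readings in all, of which chance alone would set apart about 1 in 20. Vehicle contralateral replicate 1 held 652.4 CPM of Cx3cl1 against 540.0 to 571.7 CPM in the other libraries of its group, and this is the library with the high striatal transcripts. Vehicle contralateral replicate 5 held 0.295 CPM of Cxcl13 against 0 to 0.055 CPM. HPBCD peri-infarct replicate 4 held 5.52 CPM of Cxcl10 against 1.27 to 2.06 CPM. That library was also the highest of its group for 19 of the 31 members.

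For 5 members the difference between regions was not the same in the treatments by the interaction test of edgeR. Cxcr4 (2.59), Ackr3 (0.82) and Cxcl12 (0.81) had a higher log2 fold change beside the infarct in HPBCD than in vehicle mice, and Ackr1 (−0.5) and Ccl27a (−0.76) a lower one. These 5 are 3 higher and 2 lower of 31 members, where 5.03% and 4.38% of all genes were called. None of them was called in all 20 fits that left out a library.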

How the results depend on the processing

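No called member changed direction under any setting tried. Of the members called beside the infarct, 9 in vehicle became 19 with DESeq2, 17 with no filter, 17 with 10 counts in 5 libraries and 17 with all 4 groups in 1 fit, settings that test more members. The interaction, called for 5, fell to 1 with limma voom (Cxcl12), 3 with upper-quartile factors and 3 with no filter, and the cause was not tested. Leaving out a library gave 6 to 12 members in vehicle, 26 to 29 in HPBCD, 4 to 15 between treatments beside the infarct, 0 to 0 contralaterally and 0 to 6 for the interaction. With the replicate block, which pairs regions by animal, the counts were 9 in vehicle (6 higher and 3 lower), 26 in HPBCD and 5 for the interaction; between treatments, where the number pairs no animals, it gave 15 beside the infarct and 0 contralaterally. Over the other settings all 26 calls in HPBCD mice held. Depth limits the genes with contralateral means under 0.2 CPM, whose fold changes rest on few counts.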
